A study of Mus musculus with 4 samples.

Results

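Inflammasomes are protein complexes that assemble in the cytosol when a sensor meets a microbial product or a sign of cell damage. Sensors of the NLR and AIM2 families recruit, directly or through the adaptor ASC, the protease caspase-1, which matures interleukin-1β and interleukin-18 and cuts gasdermin D. The freed part of gasdermin D forms pores in the plasma membrane, which leads to the lytic cell death called pyroptosis, and neutrophils use these proteins against bacteria. Of the 28585 genes listed, 10 genes of this system were chosen by name for their role, with earlier results of these data known. They were the sensors *Nlrp3*, *Nlrp12*, *Nlrc4*, *Naip2*, *Naip5* and *Aim2*, the adaptor *Pycard*, the caspases *Casp1* and *Casp4*, and the pore-forming *Gsdmd*. All 10 were listed and all 10 passed the filter on low values.

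The genes were measured by bulk RNA sequencing of PMN-MDSCs, neutrophil-like cells that restrain T cells, from the spleens of mouse pups on postnatal day 7. There were 2 libraries labelled Dhps cko and 2 labelled Dhps flox, each from 300000 cells. Both genotypes were on a C57BL/6J background and carried floxed *Dhps* alleles (Dhps fl/fl), and Dhps cko pups (Dhps fl/fl Lysm cre) in addition carried Cre in the *Lysm* (*Lyz2*) locus, which is active in neutrophils, monocytes and macrophages. *Dhps* encodes deoxyhypusine synthase, which with spermidine modifies the translation factor eIF5A. The study gives the sorted cells as CD11b+ Ly6C lo/- Ly6G+. The labels do not say whether a library came from 1 pup or from several, so the p-values measure only the spread between these libraries, which may be technical. In bulk RNA, fewer cells of a type and less RNA per cell cannot be told apart.

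Levels are FPKM, fragments relative to the length of the transcript and the depth of the library, so they can be compared between genes. The FPKM of a library summed to between 304281 and 319286, and the steps between low values put the depth at about 28900000 to 32600000 fragments. Neutrophil markers summed to 49624 and 52333 FPKM in Dhps cko and to 50260 and 46663 FPKM in Dhps flox, and none of the 11 was at 0. *Dhps* had levels of 2.38 and 2.59 FPKM in the Dhps cko libraries, against 3.57 and 3.11 FPKM in the Dhps flox libraries, so both Dhps cko values lay below both Dhps flox values and the transcript was present in every library (log2 difference -0.41, standard error 0.13, adjusted p = 0.629 by limma with Benjamini-Hochberg adjustment). *Lyz2*, the lysozyme gene that holds the Cre, was at 2245 and 2380 FPKM in Dhps cko and at 6874 and 6544 FPKM in Dhps flox, and its groups stood far apart (adjusted p = 0.0835, limma).

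The test was limma's, applied to log2(FPKM + 0.1), a scale on which the changes of low genes are understated. None of the 10 inflammasome and pyroptosis genes differed between genotypes by this test, which took in the 17948 genes that averaged 0.1 FPKM or more. With an adjusted p under 0.05, 0 of the 10 were called, against 0.00557% of all genes tested, which was 1 gene. With an unadjusted p under 0.05, 0 of the 10 were called, against 4.72% of all genes tested that were higher in Dhps cko and 2.28% that were lower. The median log2 difference of the 10 genes was 0.05, and that of all genes tested was 0.01. In 8 of the 10 genes the replicates of 1 genotype differed from each other by more than the genotype means did, the exceptions being *Nlrc4* and *Naip2*. The 95% interval of the difference included 0 in 10 of 10 genes and lay within a fold of 0.67 to 1.5 in 9 of 10, all but *Nlrc4*. With 2 libraries a genotype, the smallest p of an exact permutation test is 0.33.

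**Figure D1:**
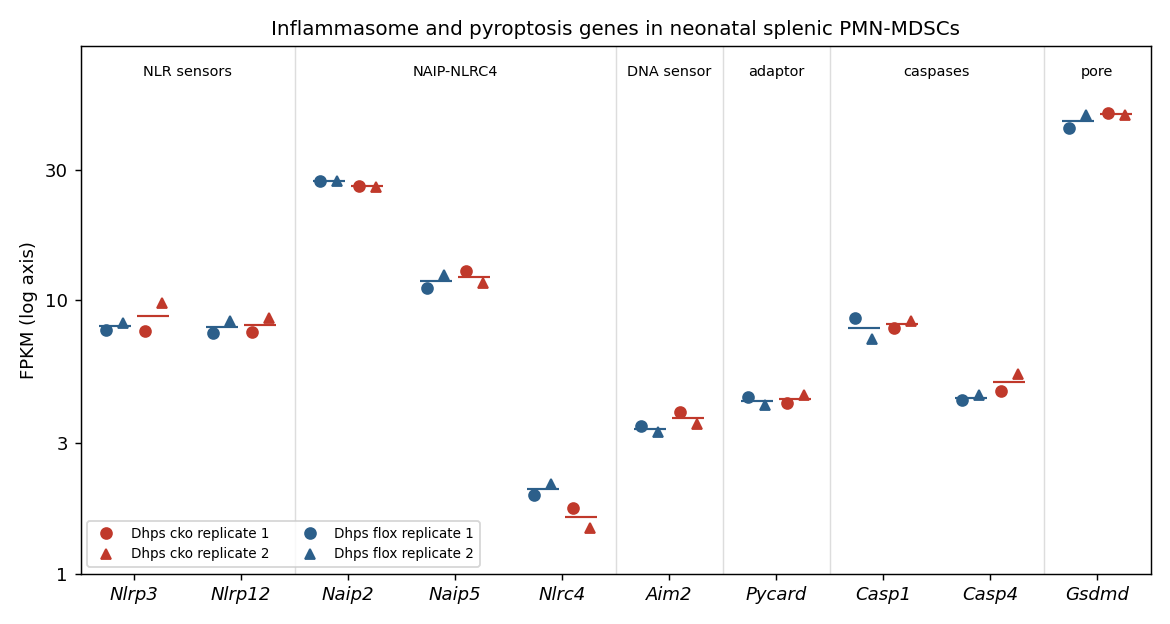
FPKM (log axis) of the 10 inflammasome and pyroptosis genes in each library, grouped by role. Red marks are Dhps cko, blue marks Dhps flox, circles replicate 1, triangles replicate 2, and lines the group means. *Gsdmd* was the highest at 42.75 to 48.48 FPKM and *Nlrc4* the lowest at 1.47 to 2.13 FPKM, and no gene passed the test between genotypes.

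The levels of the 10 genes spread over the upper part of the expressed range, and pore, sensors and adaptor were far from equal. *Gsdmd* was the highest, with a mean of 46.6 FPKM over the 4 libraries, above 95.7% of the genes tested, and it made up 35.9% to 38.7% of the summed FPKM of the 10 genes. *Naip2* followed at a mean of 26.7 FPKM and *Naip5* at 11.9 FPKM. *Nlrp3* (8.38 FPKM), *Nlrp12* (8.04 FPKM) and *Casp1* (8.04 FPKM) came next, and their ranges over the libraries overlapped, so their order is not resolved. The same was true of *Casp4* (4.70 FPKM) and *Pycard* (4.31 FPKM). *Aim2* (3.55 FPKM) and *Nlrc4* (1.82 FPKM) were the lowest, and *Nlrc4* stood near the middle of the genes tested, above 49.9% of them. The summed level of the 10 genes was 125 and 127 FPKM in Dhps cko and 119 and 125 FPKM in Dhps flox.

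*Nlrp3* (ENSMUSG00000032691; GRCm38 chromosome 11, 59541568 to 59566956, plus strand) encodes the sensor that responds to potassium efflux and membrane damage, and its transcription is raised by NF-κB. The Dhps cko libraries, with replicate 1 given first here and for every gene, had 7.69 and 9.77 FPKM, and the Dhps flox libraries had 7.78 and 8.27 FPKM. Dhps cko held both the lowest and the highest value, so the groups overlapped. The fold was 1.08 with a 95% interval of 0.85 to 1.37 (adjusted p = 0.902, limma). *Nlrp12* (ENSMUSG00000078817; chromosome 7, 3218784 to 3249740, minus strand), a sensor of myeloid cells also known as a restraint on NF-κB signaling, was at 7.67 and 8.58 FPKM in Dhps cko and at 7.57 and 8.36 FPKM in Dhps flox. The groups overlapped almost fully, at a fold of 1.02 (0.85 to 1.22; adjusted p = 0.975, limma). Of the *Nlrp12* exon bases, 6.3% overlap microRNA genes on the opposite strand, and whether strand was used in counting is not given in the sources used here.

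The NAIP proteins bind bacterial ligands, NAIP5 flagellin and NAIP2 a rod protein of type III secretion, and then activate NLRC4. *Naip2* (ENSMUSG00000078945; chromosome 13, 100144063 to 100202092, minus strand) was at 26.16 and 25.99 FPKM in Dhps cko and at 27.26 and 27.20 FPKM in Dhps flox. Both Dhps cko values lay below both Dhps flox values, by a narrow margin (fold 0.96, 95% interval 0.87 to 1.06, adjusted p = 0.849, limma). *Naip5* (ENSMUSG00000071203; chromosome 13, 100211739 to 100246323, minus strand) was at 12.78 and 11.52 FPKM in Dhps cko and at 11.08 and 12.36 FPKM in Dhps flox, with overlapping groups (fold 1.04, 0.88 to 1.23; adjusted p = 0.946, limma). These genes lie side by side and are near-identical in places. Of the 50-base stretches of their transcripts, 19.4% in *Naip2* and 36.9% in *Naip5* also occur in other genes, so the split of reads within the family is uncertain. The sum of *Naip1*, *Naip2*, *Naip5* and *Naip6*, which depends less on that split, was 51.8 and 49.7 FPKM in Dhps cko and 50.5 and 52.9 FPKM in Dhps flox, and these values overlapped.

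*Nlrc4* (ENSMUSG00000039193; chromosome 17, 74425438 to 74459142, minus strand), the shared partner of the NAIP sensors, had the largest difference of the 10 genes. It was at 1.74 and 1.47 FPKM in Dhps cko and at 1.94 and 2.13 FPKM in Dhps flox. Both Dhps cko libraries were below both Dhps flox libraries, at 78.9% of the Dhps flox mean, but the difference did not pass the test (log2 difference -0.33, standard error 0.16, unadjusted p = 0.0934, adjusted p = 0.768, limma). At the approximate depth these levels stand for about 220 to 290 fragments in a library, with a counting error of 6.7% at the lowest. Its interval was a fold of 0.60 to 1.06, the widest of the 10 on the log2 scale. The ratio of *Naip2* plus *Naip5* to *Nlrc4* was 22.4 and 25.5 in Dhps cko and 19.8 and 18.6 in Dhps flox.

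*Aim2* (ENSMUSG00000037860; chromosome 1, 173350879 to 173466040, plus strand), the sensor of cytosolic DNA, was at 3.91 and 3.53 FPKM in Dhps cko and at 3.48 and 3.30 FPKM in Dhps flox. Both Dhps cko values were above both Dhps flox values, and the nearest pair was 3.53 against 3.48 FPKM (fold 1.09, 95% interval 0.90 to 1.33, adjusted p = 0.842, limma). *Pycard* (ENSMUSG00000030793; chromosome 7, 127989708 to 127993867, minus strand), which encodes the adaptor ASC, was at 4.22 and 4.5 FPKM in Dhps cko and at 4.41 and 4.13 FPKM in Dhps flox, with overlapping groups (fold 1.02, 0.85 to 1.22; adjusted p = 0.973, limma). The GENCODE model of *Pycard* has 3800 exon bases and runs 1665 bases past the RefSeq model, so its level per length, and its place in the order of the genes, depends on the model used. Of its exon bases 12.8% overlap the antisense gene *Gm45205*, which was listed at 0.02 to 0.08 FPKM.

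*Casp1* and *Casp4* are neighbors on the plus strand of chromosome 9. *Casp1* (ENSMUSG00000025888; 5298517 to 5307265), the protease of the canonical inflammasomes, was at 7.92 and 8.42 FPKM in Dhps cko and at 8.64 and 7.19 FPKM in Dhps flox. Dhps flox held both its highest and its lowest value (fold 1.04, 95% interval 0.84 to 1.27, adjusted p = 0.960, limma). *Casp4* (ENSMUSG00000033538; 5308828 to 5336783), which in the mouse encodes caspase-11, a sensor of cytosolic lipopolysaccharide, was at 4.64 and 5.36 FPKM in Dhps cko and at 4.31 and 4.49 FPKM in Dhps flox. Both Dhps cko values were above both Dhps flox values, with a mean at 113.6% of the Dhps flox mean, the highest such percentage of the 10 genes, but the difference did not pass the test (log2 difference 0.18, standard error 0.11, adjusted p = 0.80, limma). *Casp4* rested on about 190 to 240 fragments in a library. The ratio of *Casp1* to *Casp4* was 1.71 and 1.57 in Dhps cko and 2.00 and 1.60 in Dhps flox, which overlapped.

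*Gsdmd* (ENSMUSG00000022575; chromosome 15, 75862327 to 75867408, plus strand), the pore-forming target of both caspases, was at 48.48 and 47.70 FPKM in Dhps cko and at 42.75 and 47.39 FPKM in Dhps flox. Both Dhps cko values were above both Dhps flox values, with Dhps flox replicate 1 the lowest (fold 1.07, 95% interval 0.94 to 1.21, adjusted p = 0.820, limma). Without Dhps flox replicate 2 the unadjusted p of *Gsdmd* was 0.0423, with an adjusted p of 0.542. Counted over the 10 genes, Dhps cko lay above Dhps flox in 3 (*Aim2*, *Casp4* and *Gsdmd*), against 20.0% of all genes tested, and below it in 2 (*Nlrc4* and *Naip2*), against 16.0%. The groups overlapped in the other 5.

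**Figure D2:**
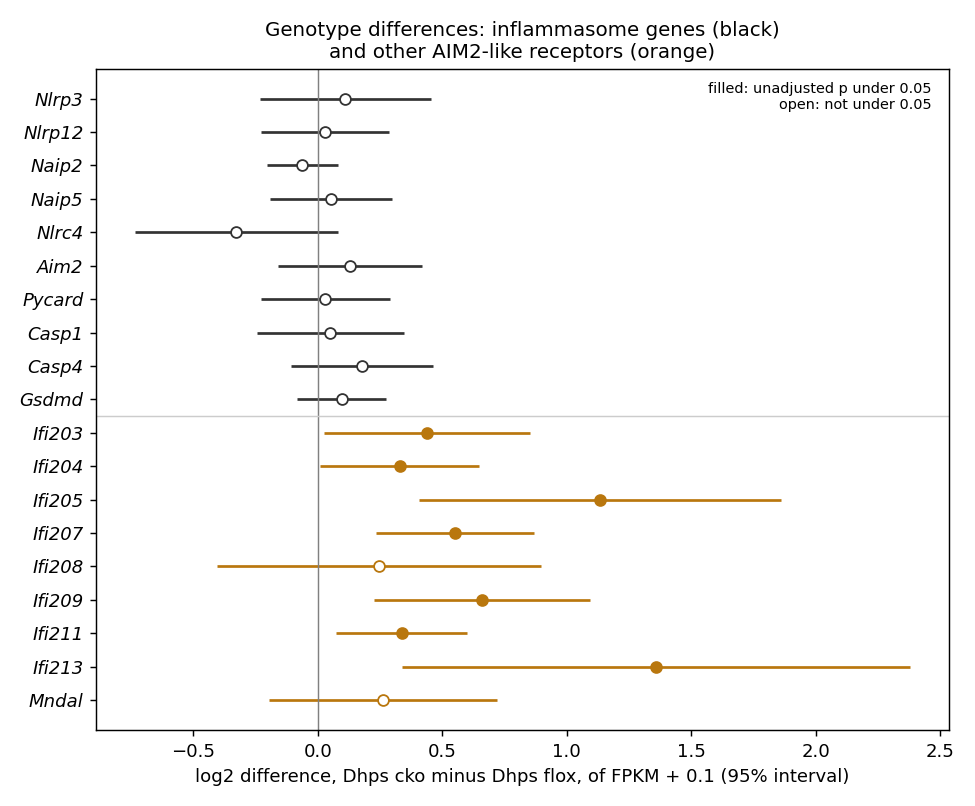
Log2 difference (Dhps cko minus Dhps flox, of FPKM + 0.1) with its 95% interval from limma for the 10 inflammasome and pyroptosis genes (black) and the 9 other AIM2-like receptors tested (orange). Filled points have an unadjusted p under 0.05. All 10 black intervals include 0, and 7 of the 9 orange ones do not.

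The promoters of 3 members and of relatives of *Aim2* show how the letters upstream of these genes differ. RefSeq sequence of GRCm38.p6 was searched over the 250 bases before each start, on both strands, for 2 forms: GGNNTTTCC, a form bound by NF-κB, and GAAANNGAA, a form of the interferon response element. A sequence was matched for 9 of the 10 genes (not *Gsdmd*). The NF-κB form was found for 2 of these 9, *Nlrp3* and *Casp4*, against 4.9% of all 32817 promoters, and the interferon form for 0 of 9, against 7.1%. A promoter may hold both forms, but the same run of letters cannot match both. A match is a description of the letters and not a site of binding. The stretches below run 5′ to 3′ from 250 to 51 bases before a RefSeq start, on the plus strand at chr11:59542436-59542635 (*Nlrp3*), chr9:5308599-5308798 (*Casp4*) and chr1:173420354-173420553 (*Aim2*, shown as a sensor with neither form), and capitals mark the NF-κB form, which begins 94 bases before the start in *Nlrp3* and 92 in *Casp4*. Another match in *Casp4* lies closer to the start, outside the stretch. The *Nlrp3* and *Aim2* stretches lie inside the gene spans given above, before starts that are internal to those spans. Another *Nlrp3* start, near the first base of its gene span, has a match of its own that is not shown.
Nlrp3: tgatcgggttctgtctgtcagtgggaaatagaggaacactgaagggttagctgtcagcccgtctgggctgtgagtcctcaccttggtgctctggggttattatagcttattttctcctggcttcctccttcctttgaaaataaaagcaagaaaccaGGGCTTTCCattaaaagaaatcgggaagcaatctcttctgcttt
Casp4: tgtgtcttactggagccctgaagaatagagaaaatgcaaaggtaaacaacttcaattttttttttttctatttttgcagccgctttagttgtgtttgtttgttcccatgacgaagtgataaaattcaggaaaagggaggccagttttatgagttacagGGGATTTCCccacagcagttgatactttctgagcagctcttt
Aim2: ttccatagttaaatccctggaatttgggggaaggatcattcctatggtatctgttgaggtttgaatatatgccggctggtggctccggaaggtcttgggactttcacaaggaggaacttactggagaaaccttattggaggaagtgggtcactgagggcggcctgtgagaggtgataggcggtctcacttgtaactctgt

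The other AIM2-like receptors, interferon-inducible DNA-binding proteins encoded beside *Aim2* on chromosome 1, were at higher levels in Dhps cko, and most of them passed the test only before adjustment. Of 9 tested, 7 had an unadjusted p under 0.05 and higher levels in Dhps cko (4.72% of all genes tested), 0 had lower levels, and 0 had an adjusted p under 0.05 by limma. *Ifi207* was at 3.24 and 3.01 FPKM in Dhps cko and at 2.02 and 2.18 FPKM in Dhps flox (log2 difference 0.55, standard error 0.12, unadjusted p = 0.0067, adjusted p = 0.510, limma). *Ifi209* was at 1.9 and 2.07 FPKM in Dhps cko and at 1.11 and 1.34 FPKM in Dhps flox (log2 difference 0.66, unadjusted p = 0.0115, limma). The most abundant of them, *Ifi204*, was at 15.03 and 18.96 FPKM in Dhps cko and at 13.74 and 13.11 FPKM in Dhps flox (log2 difference 0.33, unadjusted p = 0.0459, limma). In each of these the groups did not overlap. The rest of the 7 were *Ifi211*, *Ifi203*, *Ifi205* and *Ifi213*, with log2 differences of 0.34, 0.44, 1.13 and 1.36, and the last 2 of these were below 1 FPKM in every library. *Ifi213* was at 0.27 and 0.27 FPKM in Dhps cko and at 0.03 and 0.06 FPKM in Dhps flox. It passed the filter on low values only through Dhps cko, so its place in the count of 7 carries no weight. *Ifi208* (log2 difference 0.25) and *Mndal* (0.26) did not pass. The median of the 9 was 0.44 on the log2 scale, and their summed level was 30.45 and 33.50 FPKM in Dhps cko and 24.33 and 23.85 FPKM in Dhps flox. The difference between *Aim2* and its relatives was itself not tested.

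The count of 7 fell to 3 without Dhps cko replicate 1, to 1 without Dhps cko replicate 2 and to 4 without either Dhps flox library, and it was 4 where only genes averaging 1 FPKM or more were tested. These receptors share sequence to different degrees. Of the 50-base stretches of a receptor, 7.2% in *Ifi207*, 10.9% in *Ifi203*, 27.9% in *Ifi213*, 30.2% in *Ifi204*, 35.1% in *Ifi209*, 49.6% in *Ifi205* and 72.9% in *Ifi211* also occur in other genes, so the split of reads among those with high shares is uncertain. A RefSeq sequence was matched for 9 receptors, the tested ones without *Ifi204* and, in addition, *Ifi202b*, which was too low to test. The interferon form was found upstream of 7 of these 9, against 7.1% of all promoters, and the NF-κB form of 0 of 9, against 4.9%. A gene was counted if any of its RefSeq starts had a match. These 7 are not the 7 that passed without adjustment: *Ifi208* and *Mndal* have the form and *Ifi209* does not. The matches are not independent, since the receptors share sequence, and the windows of *Ifi208* and *Ifi213* below are identical. Windows of 50 bases around the match, with the match in capitals, are shown for 6 of them, to let the letters around the form be compared. They run 5′ to 3′ on the strand of the gene, minus for *Ifi203* (chr1:173942498-173942547), *Ifi205* (chr1:174031860-174031909), *Ifi207* (chr1:173741821-173741870), *Ifi211* (chr1:173913054-173913103) and *Ifi213* (chr1:173599316-173599365), and plus for *Ifi208* (chr1:173673587-173673636).
Ifi203: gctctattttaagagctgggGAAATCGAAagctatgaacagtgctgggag
Ifi205: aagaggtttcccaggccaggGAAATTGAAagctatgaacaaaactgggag
Ifi207: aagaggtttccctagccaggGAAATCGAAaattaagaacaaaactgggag
Ifi208: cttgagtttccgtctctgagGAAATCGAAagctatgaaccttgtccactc
Ifi211: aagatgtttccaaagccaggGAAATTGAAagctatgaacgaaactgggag
Ifi213: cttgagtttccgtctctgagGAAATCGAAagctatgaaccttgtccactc

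Other genes of the pathway were counted in lists, and few of them had an unadjusted p under 0.05, which is the threshold meant by "higher" and "lower" in these counts. Over all genes tested, 4.72% were higher and 2.28% lower by this threshold. Among 11 other NLR and pyrin sensors tested, 1 was higher and 0 lower, with a median log2 difference of -0.01. The 1 was *Nlrc5*, known for driving MHC class I genes, at 0.75 and 0.89 FPKM in Dhps cko and at 0.40 and 0.36 FPKM in Dhps flox (log2 difference 0.94, unadjusted p = 0.0121, adjusted p = 0.561, limma). *Nlrx1*, *Naip6* and *Nod1* were the most abundant of this list, and their groups overlapped or differed by less than 0.10 on the log2 scale. Among 15 regulators, 1 was higher and 0 lower (median -0.01): *Gbp2*, an interferon-induced GTPase that opens bacterial vacuoles, at 2.43 and 2.36 FPKM in Dhps cko and at 1.69 and 1.56 FPKM in Dhps flox (log2 difference 0.53, unadjusted p = 0.0107, adjusted p = 0.548, limma). *Serpinb1a*, a protease inhibitor of neutrophils, was the highest of the regulators at 225.97 and 225.51 FPKM in Dhps cko and at 210.15 and 202.80 FPKM in Dhps flox and did not pass.

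Downstream of the caspases, the substrate cytokines and their receptors and inhibitors gave 1 higher and 0 lower of 10 tested, with a median of 0.10. *Il1b*, which encodes the interleukin-1β precursor, was at 18.35 and 20.73 FPKM in Dhps cko and at 23.43 and 20.09 FPKM in Dhps flox, and the groups overlapped (log2 difference -0.15, adjusted p = 0.817, limma). *Il1rn*, the antagonist of its receptor, was at 22.44 and 23.32 FPKM in Dhps cko and at 21.08 and 18.93 FPKM in Dhps flox (log2 difference 0.20, unadjusted p = 0.0538, limma). The ratio of *Il1rn* to *Il1b* was 1.22 and 1.12 in Dhps cko and 0.90 and 0.94 in Dhps flox, and did not overlap. The 1 gene that passed without adjustment was *Il1r2*, a decoy receptor, at 20.08 and 24.49 FPKM in Dhps cko and at 17.30 and 18.16 FPKM in Dhps flox (log2 difference 0.32, unadjusted p = 0.0329, adjusted p = 0.664, limma). *Il18* was at 4.54 and 5.10 FPKM in Dhps cko and at 4.40 and 3.97 FPKM in Dhps flox and did not pass.

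Among 9 other gasdermins, caspases and rupture genes tested, 1 was higher and 0 lower, with a median of 0.02. It was *Ninj1*, whose protein tears the plasma membrane late in lytic death, at 9.41 and 9.40 FPKM in Dhps cko and at 7.91 and 7.67 FPKM in Dhps flox (log2 difference 0.27, unadjusted p = 0.0146, adjusted p = 0.568, limma). The gasdermin C genes were seen mainly in 1 library: *Gsdmc4* was at 0.26 and 0.34 FPKM in Dhps cko, at 2.43 FPKM in Dhps flox replicate 1 and at 0.17 FPKM in Dhps flox replicate 2. The epithelial keratin gene *Krt8*, named after its values were seen, was also highest there, at 8.85 FPKM against 0.90 to 2.63 FPKM in the other libraries. Without that library the median log2 difference of the 10 genes was 0.04. Among 13 genes of the ESCRT-III machinery, which repairs gasdermin pores, 0 passed in either direction without adjustment by limma, and their log2 differences ran from -0.05 to 0.11. Of 5 necroptosis genes 1 was higher and 0 lower: *Zbp1*, a sensor of Z-form nucleic acid, at 1.41 and 1.28 FPKM in Dhps cko and at 0.62 and 0.73 FPKM in Dhps flox (log2 difference 0.90, unadjusted p = 0.00604, adjusted p = 0.506, limma).

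Among 18 priming receptors, adaptors and transcription factors, which switch on inflammasome genes, 3 were higher and 1 was lower, with a median of 0.08. *Irf9*, a transcription factor of interferon signaling, was at 13.89 and 14.33 FPKM in Dhps cko and at 9.43 and 9.96 FPKM in Dhps flox (log2 difference 0.54, unadjusted p = 0.000686, adjusted p = 0.379, limma). *Stat2*, its partner, had a log2 difference of 0.28 (unadjusted p = 0.0188, adjusted p = 0.595, limma). The gene that was lower was *Cd14*, the co-receptor for lipopolysaccharide, at 12.02 and 12.50 FPKM in Dhps cko and at 17.62 and 15.27 FPKM in Dhps flox (log2 difference -0.42, unadjusted p = 0.0063, adjusted p = 0.510, limma). *Myd88* and *Rela*, among the most abundant of the list, did not pass. 

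**Figure D3:**
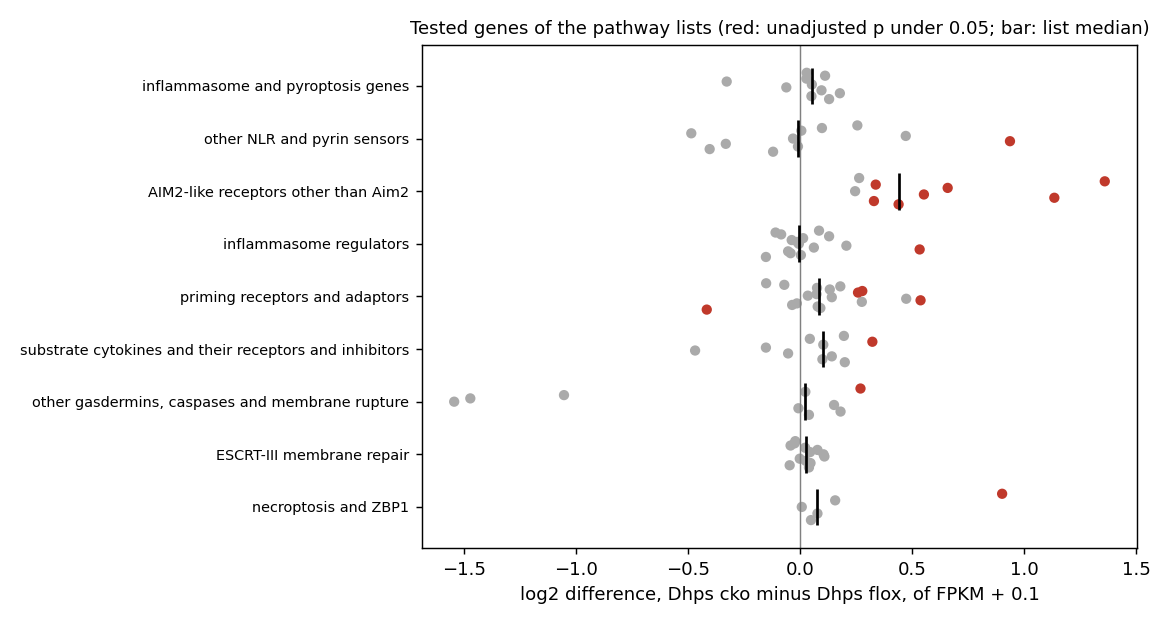
Log2 difference (Dhps cko minus Dhps flox, of FPKM + 0.1) of each tested gene in the 10 inflammasome and pyroptosis genes and in 8 lists of their pathway. Red points have an unadjusted p under 0.05, gray points do not, and bars are list medians. The list of AIM2-like receptors has the highest median, 0.44, and the other medians lie between -0.01 and 0.10.

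Markers of other cell types were also at higher levels in Dhps cko, several of them with an unadjusted p under 0.05, and their part in the results above was not tested. Against 4.72% of all genes tested, 6 of 11 monocyte-macrophage markers had an unadjusted p under 0.05 and were higher in Dhps cko, and their summed level was 268.2 and 270.6 FPKM in Dhps cko and 222.1 and 219.7 FPKM in Dhps flox. Of 8 B cell markers 6 were higher, with sums of 67.5 and 70.4 FPKM in Dhps cko and 43.2 and 52.4 FPKM in Dhps flox. Of 8 T cell markers 2 were higher, with sums of 22.7 and 16.4 FPKM in Dhps cko and 13.5 and 8.42 FPKM in Dhps flox, the largest percentage of the Dhps flox mean among the lists (207.2% and 149.7%). Of 7 eosinophil markers tested 3 were higher, with sums of 98.9 and 94.1 FPKM in Dhps cko and 80.4 and 81.7 FPKM in Dhps flox. Of 6 dendritic cell markers tested 0 passed by limma without adjustment, with sums of 8.81 and 8.85 FPKM in Dhps cko and 5.14 and 7.22 FPKM in Dhps flox. Of 8 erythroid markers 0 passed likewise, and their sums overlapped, at 731 and 878 FPKM in Dhps cko and 606 and 912 FPKM in Dhps flox. None of these lists had a marker at an unadjusted p under 0.05 that was lower in Dhps cko. Of the markers in these lists 1 was at 0 in any library, the eosinophil gene *Prg3*, in 3 of 4. Among neutrophil markers *Ly6g* alone of 11 passed without adjustment, at 222.2 and 241.6 FPKM in Dhps cko and at 195.0 and 184.8 FPKM in Dhps flox.

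**Figure D4:**
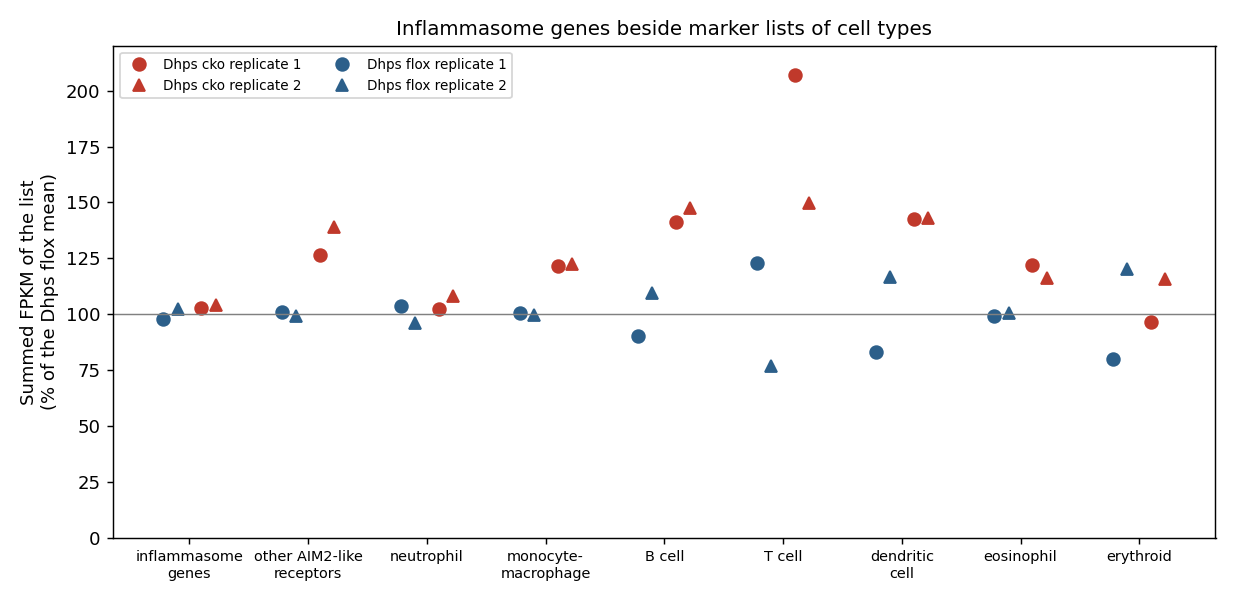
Summed FPKM of each list in each library, as a percentage of the Dhps flox mean (100%, gray line). Red marks are Dhps cko, blue marks Dhps flox, circles replicate 1 and triangles replicate 2. The 10 inflammasome and pyroptosis genes stay between 97.7% and 104.0%, whereas the other AIM2-like receptors reach 126.4% and 139.1% and the B cell markers 141.3% and 147.4% in Dhps cko.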

How the data were processed

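PMN-MDSCs from 4 mouse spleen samples, 2 Dhps cko and 2 Dhps flox, were analyzed. The deposited values are FPKM per gene, made by the authors from reads trimmed with cutadapt, aligned with HISAT2 to mm10 and quantified with StringTie, as the submitters' processing notes and the methods of the study name them. Use of strand is not given in the sources used here. Of the gene identifiers, 28511 were in GENCODE M21 (GRCm38), from which coordinates were taken.

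Groups and replicate numbers came from the sample labels. The log2(FPKM + 0.1) of the 17948 genes averaging 0.1 FPKM or more was fitted in R 4.3.3 by limma 3.58.1 (lmFit, then eBayes with a trend, two-sided), with Benjamini-Hochberg adjustment over all genes tested and a threshold of 0.05, and without a replicate block. The comparison was tested on simulated data. Between 39.1% and 41.8% of low values of single-exon genes lay within 0.15 of a whole step (30% by chance at a fixed depth). The depth was itself chosen as the one with the strongest steps, so 30% understates the share expected by chance. Whole reads were therefore not recovered, no count test was run, and fragment numbers are approximate. The 10 genes and all lists were chosen with earlier results of these data known. All 10 genes were named, as were pathway genes with an unadjusted p under 0.05 and the most abundant of each list, except 1 gene that is not reported here. The counts over all genes, the results for the 10 genes and the count of AIM2-like receptors were recomputed with other pseudocounts, low-value filters, library scalings and variance models, with a replicate block, and without each library in turn. Other lists, ratios and sums were not. Promoter letters came from RefSeq (GRCm38.p6) and were searched with Python 3.11.15.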

Additional observations from a re-analysis of the deposited data

How the results depend on the processing

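The 10 genes gave 0 with an adjusted p under 0.05 in each of the 14 alternatives by limma. The number with an unadjusted p under 0.05 was 0 in 13 of them and 1 without Dhps flox replicate 2 (*Gsdmd*), a range of 0 to 1 when 1 library was left out. *Nlrc4*, *Naip2*, *Aim2*, *Casp4* and *Gsdmd* kept their direction in 14 of 14. With TPM scaling *Nlrp12* was at -0.004 and *Pycard* at -0.002 on the log2 scale. When 1 library was left out, log2 differences ran from -0.06 to 0.281 for *Nlrp3*, -0.052 to 0.108 for *Nlrp12*, -0.026 to 0.13 for *Naip5*, -0.017 to 0.076 for *Pycard* and -0.08 to 0.181 for *Casp1*, and the number of the 10 genes without overlap ran from 7 to 8, since fewer libraries are compared. The median of all genes moved by at most 0.027 from 0 under any alternative.

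Over all genes, 1 had an adjusted p under 0.05. The number was 0 with a pseudocount of 0.01, 0 with no filter beyond a value above 0, 4 with a mean of at least 1 FPKM, 2 with quantile normalization, 2 with robust eBayes, 0 with the replicate block and 0 to 0 when 1 library was left out. Over all genes, 1257 had an unadjusted p under 0.05, 819 with a mean of at least 1 FPKM (fewer genes tested) and 719 to 1609 when 1 library was left out. The number of AIM2-like receptors, an alternative chosen after seeing the data, was 7. With all libraries kept it was 5 with TPM scaling, 5 with quantile normalization and 5 with the replicate block. It was 6 with median-of-ratios scaling, 6 without the trend and 6 with no filter beyond a value above 0. With a mean of at least 1 FPKM it was 4, and fewer of the receptors were then tested. It fell whichever library was left out, as given above. With 1 library left out, the lone library of a genotype is assumed to vary like the others.

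The labels do not say whether the replicate numbers pair the samples. The deviations of replicate 1 from the group means correlated at -0.057 between genotypes. With 2 libraries a genotype this value cannot show whether the libraries were paired. The replicate block changed no call among the 10 genes. With 2 libraries a genotype, differences smaller than the intervals given could not be resolved.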
